A study of Homo sapiens with 11 samples.

Results

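Cells under stress release hormones and switch on brakes of growth, and 6 genes of this kind were followed across 4 groups of HEK293T cells, a human embryonic kidney line, out of the 58735 genes listed in the count table. FGF21, GDF15, INHBE and STC2 encode secreted proteins, while SESN2 and DDIT4 encode intracellular brakes of the growth kinase complex mTORC1. The 6 genes were chosen by name as outputs of stress signalling with their changes in the knockdowns against control already known. Those changes are therefore given as a description. Where members are counted past a call rule against control, the count only describes them and supports nothing, and differences between knockdowns are the ones tested.

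Poly(A) RNA was sequenced from HEK293T cells of 4 groups. Per the labels, 3 libraries come from cells given a control siRNA, 3 from cells given an siRNA to NAE1 (siNAE1, 50 nM), 3 from cells given an siRNA to UBE2M (siUBE2M, 70 nM) and 2 from cells given an siRNA to URM1 (siURM1, 60 nM). The transfected cells were harvested after 48 h, each knockdown used 1 siRNA product at its own dose, and the libraries of a group are labelled as biological replicates. The study's methods also include a non-targeting siRNA as negative control, which goes with this label, although a supplementary figure abbreviates the control group as HKWT. Total counts ranged from 11733163 in siNAE1 replicate 3 to 16321391 in siURM1 replicate 1. NAE1 is a subunit of the enzyme that activates the ubiquitin-like protein NEDD8, UBE2M passes NEDD8 on to cullins, and URM1 is a ubiquitin-like protein that also carries sulfur for tRNA modification.

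The targeted genes were examined first. CPM (counts per 1000000 on TMM-scaled libraries) of NAE1 were 98.9, 109 and 99.0 in the control libraries and 41.6, 42.6 and 35.2 in the siNAE1 libraries. UBE2M was at 263, 268 and 264 CPM in the control and 15.6, 15.6 and 19.1 CPM in the siUBE2M libraries. URM1 was at 54.4, 51.0 and 55.4 CPM in the control and 15.2 and 15.5 CPM in the siURM1 libraries. Each targeted gene was therefore lowest in the group named after it, at 39.0%, 6.34% and 28.6% of control in the edgeR fit. The cell identity was examined with listed markers. VIM, an intermediate filament gene, led the markers of the line at 33.5 FPKM (fragments per kilobase of gene length, scaled by the authors with a constant for each library) in the control, followed by KRT18 at 11.2, KRT8 at 2.72, PAX2, a kidney transcription factor, at 1.59 and LHX1 at 0.61 FPKM. Their summed level was 48.7 to 50.6 FPKM in the control libraries, 57.8 to 65.2 in siNAE1, 71.9 to 89.7 in siUBE2M and 74.1 and 84.7 in siURM1 libraries. None of the 5 passed the call rule of a log2 fold change of 1 in size, but they did not move together: in siUBE2M cells VIM had a log2 fold change of 0.95 (adjusted p = 3.4e-12, edgeR) and PAX2 of -0.90 (adjusted p = 9.6e-06), while PAX2 was at 0.92 in siURM1 cells (adjusted p = 3.7e-06). The part of this in the results was not tested. Of the 5 markers of other cell types, HBB had 0 counts in every library, PTPRC at most 3, PECAM1 at most 4 and ALB, a hepatocyte marker, at most 9. Only COL1A1 passed the filter on low counts, and it made up most of the list's summed level of 1.70 to 3.08 FPKM per library.

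As background, the integrated stress response begins when kinases such as PERK, GCN2, HRI and PKR phosphorylate the initiation factor eIF2, which lowers general translation and favours that of the transcription factor ATF4. ATF4 and its partners then activate genes of amino acid supply and, among many others, the genes followed here. FGF21 is a hormone that acts on metabolism through the co-receptor KLB and FGF receptors, GDF15 acts on the hindbrain through GFRAL and RET, and INHBE encodes the subunit of activin E, a liver factor that acts on fat tissue. STC2 is a glycoprotein that inhibits the protease PAPPA, SESN2 is a leucine sensor that restrains mTORC1 through the GATOR complexes, and DDIT4 (also REDD1) restrains it through TSC1 and TSC2. DDIT4 is also a target of hypoxia-inducible factors.

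For each of the 6 genes the control libraries lay above all 8 knockdown libraries, but the size of the difference set the genes apart. INHBE and FGF21 were at no more than 12.9% of control in each of the 3 knockdowns. STC2, SESN2 and DDIT4 were between 50.2% and 63.1% of control, and GDF15 was at 25.7% to 69.2% of control depending on the knockdown. In bulk RNA such a difference cannot be divided into fewer expressing cells and less RNA per cell. All 6 genes passed the filter on low counts, FGF21 through its counts in the control group. Genes whose knockdown libraries all lay lower than every control library made up 29.7% of the 18368 genes tested in siNAE1 cells, 26.9% in siUBE2M cells and 31% in siURM1 cells, and 13.3% did so in all 3. Since this contrast was in view when the genes were chosen, nothing is read from their count of 6.

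**Figure D1:**
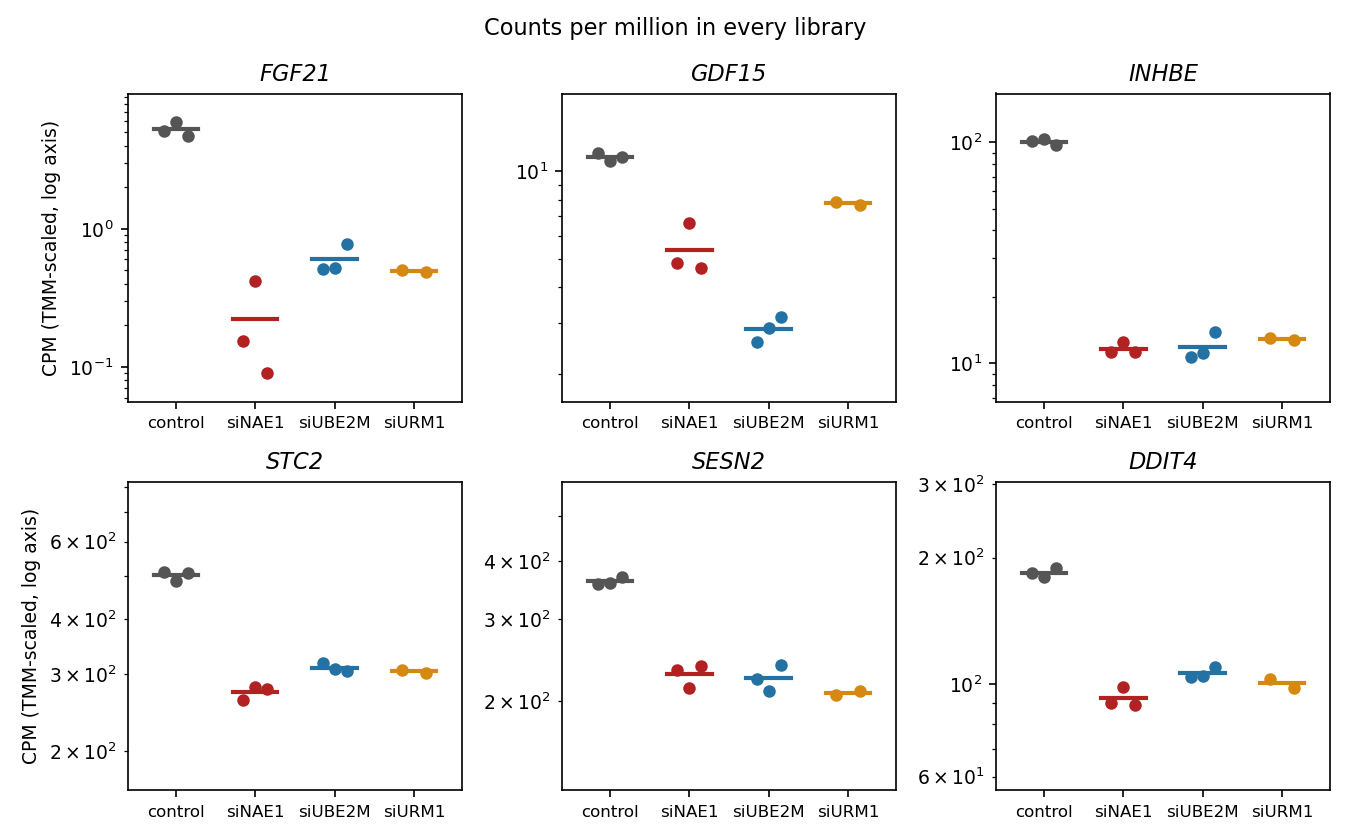
CPM (TMM-scaled, log axis with a separate range in each panel) of the 6 genes in every library; points are libraries and lines are group means. In each panel the 3 control libraries lie above all knockdown libraries. For GDF15 the 3 knockdown groups do not overlap either, a pattern whose share over all genes was not counted.

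FGF21 lies on chromosome 19 (chr19:48755559-48758333, plus strand, GRCh38) and was the least abundant of the 6. It had 84, 97 and 75 counts in the control libraries. The siNAE1 libraries held 2, 6 and 1 counts. The siUBE2M libraries held 7, 8 and 11 counts, and the siURM1 libraries 8 and 7. The hormone's transcript thus had at least 1 count in every library but was close to the counting limit in all knockdown libraries, and there was no overlap with the control. Summed over libraries and relative to total counts, siNAE1 cells had 9 counts, 4.08% of control with an exact 95% interval of 1.84% to 7.87%. The 26 counts of siUBE2M cells were 11.0% of control (interval 7.07% to 16.5%) and the 15 counts of siURM1 cells were 8.80% (interval 4.85% to 14.8%). These intervals cover counting error only. The fitted log2 fold changes were -4.45 (SE 0.42), -3.10 (SE 0.34) and -3.39 (SE 0.41) in siNAE1, siUBE2M and siURM1 cells. Without siNAE1 replicate 2, which held most of that group's counts, the siNAE1 value was -5.31.

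FGF21 has a close neighbour on the opposite strand. FUT1, a fucosyltransferase gene that forms the H blood group antigen, ends its annotated span at its start site, 133 bases before the RefSeq start of FGF21, so the genes are transcribed away from each other. FUT1 had 405, 383 and 367 counts in the control libraries, 29, 25 and 19 in the siNAE1 libraries, 77, 82 and 86 in the siUBE2M libraries and 62 and 69 in the siURM1 libraries. It fell by 3.64 on the log2 scale in siNAE1 cells (adjusted p = 3.2e-18, edgeR quasi-likelihood test with Benjamini-Hochberg adjustment over all genes). Its log2 fold change was -2.06 with siUBE2M (adjusted p = 8.5e-14) and -2.46 with siURM1 (adjusted p = 1.3e-13). By fitted value FUT1 had the same order of knockdowns as FGF21, lowest in siNAE1 and highest in siUBE2M cells. The spans do not overlap. Per the study's methods the libraries were prepared with dUTP to keep the strand, but the strand setting of the counting is not given in the sources used here. BCAT2, a branched-chain aminotransferase gene 36729 bases to the right, went the other way, with log2 fold changes of 0.76 (adjusted p = 5.2e-10), 0.24 (adjusted p = 0.012) and 0.44 (adjusted p = 7.2e-05).

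**Figure D2:**
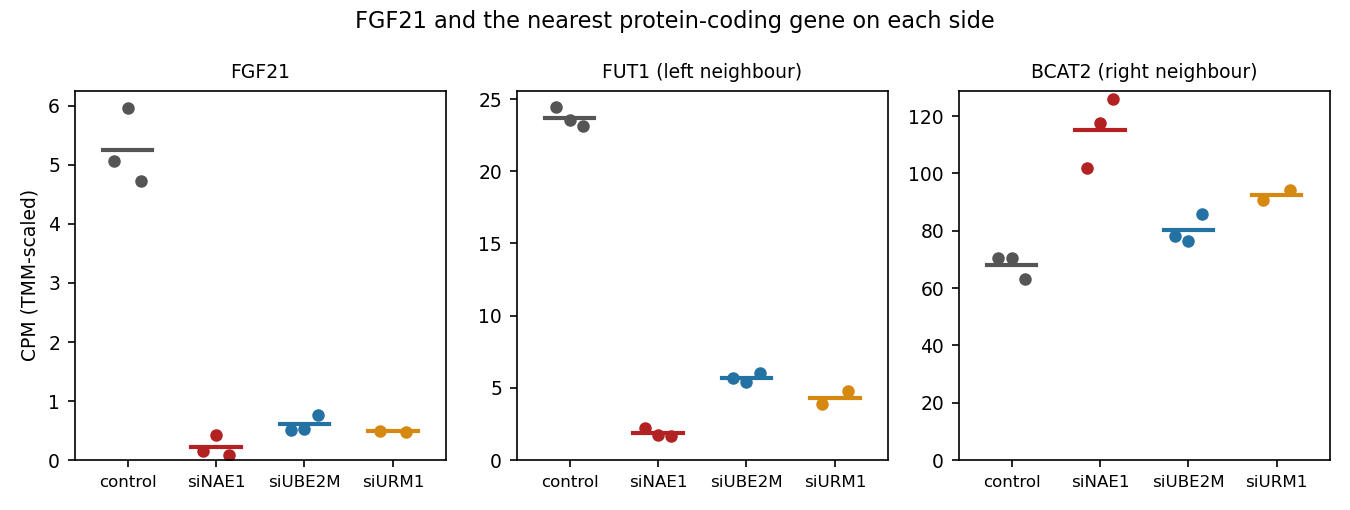
CPM (TMM-scaled, linear axes that start at 0) of FGF21, FUT1 and BCAT2 in every library; points are libraries and lines are group means. FGF21 and FUT1 are low in all knockdown libraries, while BCAT2 is highest in the siNAE1 libraries.

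The stretch between both start sites is shown because 2 genes that moved together border it. It spans chr19:48755391-48755523 (plus strand of GRCh38.p14, from RefSeq), and the capitals mark a match to the reverse complement of TGATGNAA, the core that ATF4 recognises together with C/EBP proteins.

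FGF21 to FUT1 interval: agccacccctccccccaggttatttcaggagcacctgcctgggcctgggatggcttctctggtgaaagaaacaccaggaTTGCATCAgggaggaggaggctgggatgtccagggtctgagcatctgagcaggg

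The match lies 54 to 47 bases before the RefSeq start of FGF21. Searched on both strands over the 250 bases before each start, TGATGNAA was found in 3.14% of 35116 RefSeq promoters and in 1 of the 5 members that have an entry; INHBE has none. A match is a description of the letters and not evidence of binding.

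INHBE (chr12:57452323-57459280, plus strand) was at a similar level in the 3 knockdowns. Its counts were 1674, 1692 and 1535 in the control libraries. They were 146, 178 and 125 in the siNAE1 libraries. In siUBE2M libraries they were 146, 170 and 198, and in siURM1 libraries 210 and 184. On the CPM scale control libraries lay between 96.9 and 104 and all knockdown libraries between 10.8 and 13.9, so the siUBE2M libraries spanned the range of both other knockdowns and none approached the control. The activin E subunit transcript stood at 11.6%, 11.9% and 12.9% of control in siNAE1, siUBE2M and siURM1 cells. The log2 fold changes were -3.11 (SE 0.10), -3.08 (SE 0.10) and -2.96 (SE 0.11). No pair of knockdowns differed for INHBE, with a siNAE1 to siUBE2M log2 difference of -0.03 (95% interval -0.26 to 0.19, adjusted p = 0.83, edgeR), a siNAE1 to siURM1 difference of -0.15 (-0.39 to 0.09, adjusted p = 0.36) and a siUBE2M to siURM1 difference of -0.12 (-0.35 to 0.12, adjusted p = 0.50). INHBC, the paralog 1495 bases to the left on the same strand, had at most 42 counts and was lower in all 3 knockdowns, with log2 fold changes of -1.45 (adjusted p = 0.0067), -1.85 (adjusted p = 0.0013) and -2.47 (adjusted p = 6.2e-04). GLI1, a Hedgehog transcription factor gene 855 bases to the right, had values of 0.10 (adjusted p = 0.60), -0.65 (adjusted p = 0.0013) and -0.49 (adjusted p = 0.029).

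GDF15 (chr19:18374731-18389176, plus strand) was called different between each pair of knockdowns, as given below. The control libraries held 192, 177 and 178 counts, or 11.6, 10.9 and 11.2 CPM. The siNAE1 libraries held 63, 95 and 52 counts (4.84, 6.64 and 4.66 CPM) and the siUBE2M libraries 35, 44 and 45 (2.58, 2.89 and 3.16 CPM). The siURM1 libraries held 126 and 111 counts (7.86 and 7.69 CPM). The 4 groups did not overlap on the CPM scale, in the order control, siURM1, siNAE1 and siUBE2M from high to low. The share of all genes whose knockdown groups separate in this way was not counted, so nothing is read from it. The siNAE1 group was the most variable, with replicate 2 standing above its other libraries. Relative to control the log2 fold changes were -1.05 (SE 0.16) in siNAE1, -1.96 (SE 0.18) in siUBE2M and -0.53 (SE 0.17) in siURM1 cells.

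Between knockdowns, GDF15 was 2.70-fold lower in siUBE2M than in siURM1 cells (log2 difference -1.43, SE 0.20, adjusted p = 8.0e-07, edgeR). It was higher in siNAE1 than in siUBE2M cells by a log2 value of 0.91 (SE 0.19, adjusted p = 2.2e-04). It was lower in siNAE1 than in siURM1 cells by -0.52 (SE 0.19, adjusted p = 0.026). GDF15 was the only gene of the 6 called in each of these 3 contrasts, as were 9.28% of all genes tested. The first and second of these differences kept an adjusted p under 0.05 in all alternative fits, with adjusted p up to 4.7e-05 and 0.0060. The siNAE1 to siURM1 difference was lost with 1 library fewer, at adjusted p = 0.090 and 0.089 without siNAE1 replicate 1 or 3, and 0.12 and 0.081 without siURM1 replicate 1 or 2, with DESeq2 (0.067), and with no filter on low counts (0.051), in a range of 0.0062 to 0.12. A microRNA gene within GDF15, MIR3189, had at most 1 count. The neighbours of GDF15 behaved differently, with PGPEP1 at log2 fold changes of 0.04, 0.32 and -0.18 against control (adjusted p = 0.75, 0.0066 and 0.19, edgeR) and LRRC25 at 0 counts.

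STC2 (chr5:173314713-173329503, minus strand) was the most abundant of the secreted genes. Its control libraries lay at 512, 487 and 508 CPM. The siNAE1 libraries lay at 261, 280 and 278 CPM. The siUBE2M libraries lay at 318, 307 and 304 CPM and the siURM1 libraries at 307 and 302. The inhibitor of PAPPA was thus close to 60% of control with siUBE2M or siURM1, and the siNAE1 libraries lay below both of these groups without overlap. The share of all genes that separate in this way was not counted, so nothing is read from it. The log2 fold changes were -0.88 (SE 0.06), -0.70 (SE 0.06) and -0.72 (SE 0.06). The siNAE1 value was lower than the siUBE2M value by a log2 difference of -0.18 (SE 0.06, adjusted p = 0.0084, edgeR), and lower than the siURM1 value by -0.16 (SE 0.06, adjusted p = 0.047). The second of these calls was lost without any 1 siNAE1 library (adjusted p = 0.16, 0.052 and 0.058 without replicate 1, 2 and 3) or siURM1 library (0.19 and 0.11 without replicate 1 and 2), and in 3 other fits, in a range of 0.0084 to 0.19. The first was lost without siNAE1 replicate 1 (adjusted p = 0.050, just over the threshold), in a range of 5.0e-04 to 0.050. Between siUBE2M and siURM1 cells the log2 difference was 0.03 (95% interval -0.10 to 0.15, adjusted p = 0.78). Of the neighbours of STC2, BOD1, 278011 bases to the right, had log2 fold changes against control of -0.65 (adjusted p = 1.2e-10, edgeR), -0.91 (adjusted p = 1.9e-13) and -0.45 (adjusted p = 3.2e-06). NKX2-5, 79356 bases to the left, had values of 0.51 (adjusted p = 3.6e-06), 0.10 (adjusted p = 0.35) and 0.26 (adjusted p = 0.021).

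DDIT4 (chr10:72273920-72276036, plus strand) followed STC2 closely. It was at 184, 180 and 189 CPM in the control libraries. In siNAE1 libraries it was at 89.8, 98.5 and 89.2 CPM. In siUBE2M libraries it was at 104, 104 and 110 CPM, and in siURM1 libraries at 103 and 97.9. The siNAE1 libraries were again the lowest, with replicate 2 reaching into the range of siURM1 but below that of siUBE2M. The log2 fold changes were -0.99 (SE 0.06), -0.80 (SE 0.06) and -0.88 (SE 0.07). The siNAE1 to siUBE2M difference was -0.20 (SE 0.06, adjusted p = 0.014, edgeR). It missed the threshold at adjusted p = 0.056 and 0.068 without siNAE1 replicate 1 or 3 and 0.050 without siUBE2M replicate 3, in a range of 0.0051 to 0.068. The siNAE1 to siURM1 difference was -0.12 (95% interval -0.26 to 0.03, adjusted p = 0.22) and the siUBE2M to siURM1 difference 0.08 (-0.06 to 0.22, adjusted p = 0.41). The antisense gene DDIT4-AS1, which overlaps DDIT4, had 0 counts in every library. ANAPC16, an anaphase-promoting complex subunit gene 38060 bases to the left, was lower too, with log2 fold changes of -1.55 (adjusted p = 2.6e-18, edgeR), -0.88 (adjusted p = 1.9e-12) and -0.77 (adjusted p = 5.5e-10). DNAJB12, 56794 bases to the right, had values of -0.06 (adjusted p = 0.48), 0.19 (adjusted p = 0.032) and 0.19 (adjusted p = 0.053).

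The promoter of DDIT4 is shown as that of the gene known to respond to hypoxia. The stretch chr10:72273705-72273918 (plus strand of GRCh38.p14, from RefSeq) runs from 219 to 6 bases before the RefSeq start, which lies a few bases to the right of the start listed with the counts, and the capitals mark ACGTG, the core that hypoxia-inducible factors bind.

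DDIT4 promoter: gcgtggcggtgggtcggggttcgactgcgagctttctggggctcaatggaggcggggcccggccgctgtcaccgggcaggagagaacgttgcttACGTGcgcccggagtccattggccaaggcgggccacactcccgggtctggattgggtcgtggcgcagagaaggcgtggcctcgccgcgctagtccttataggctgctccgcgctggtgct

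The match lies 125 to 121 bases before the RefSeq start. ACGTG, on either strand, was found in 18.5% of the promoters and in 1 of these 5, and TGACNNNGC, the core of the NRF2 element, in 10.9% and in none of the 5. The CCAAT box (CCAAT, either strand) was found in 32.0% of the promoters and in 4 of the 5, those of GDF15, STC2, SESN2 and DDIT4. The RefSeq starts used for GDF15 and STC2 lie well inside the gene spans listed with the counts, so these stretches do not border the printed spans. The FGF21 promoter was the one without it.

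SESN2 (chr1:28259527-28282491, plus strand) was, like INHBE, not called different between any pair of knockdowns. Control libraries held 356, 359 and 370 CPM. The siNAE1 libraries held 233, 213 and 238 CPM and the siUBE2M libraries 223, 210 and 238. The siURM1 libraries held 206 and 210 CPM. The leucine sensor was at about 60% of control in each knockdown, and the knockdown groups overlapped or nearly touched. The log2 fold changes were -0.67 (SE 0.06), -0.69 (SE 0.06) and -0.80 (SE 0.07). The differences between knockdowns were 0.03 for siNAE1 to siUBE2M (95% interval -0.09 to 0.15, adjusted p = 0.74, edgeR), 0.13 for siNAE1 to siURM1 (-0.00 to 0.27, adjusted p = 0.12) and 0.11 for siUBE2M to siURM1 (-0.03 to 0.24, adjusted p = 0.24). SESN2 was the only member lower in siURM1 than in siNAE1 cells by its fitted value, a difference that was not called. The neighbours ATP5IF1 and MED18 had log2 fold changes between -0.34 and 0.04.

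**Figure D3:**
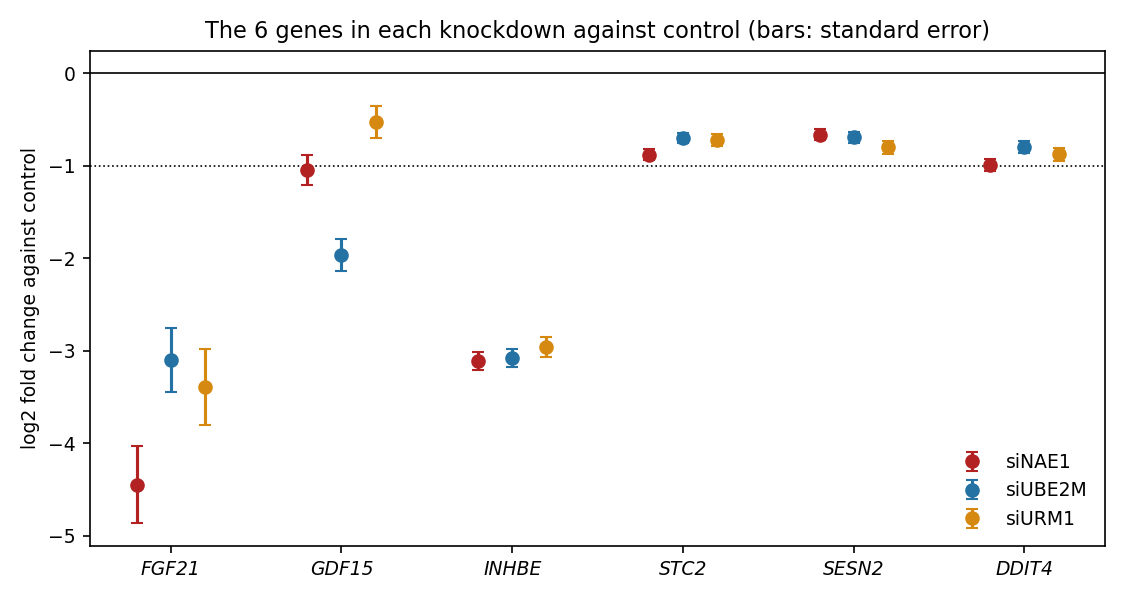
Log2 fold change against control of the 6 genes in siNAE1, siUBE2M and siURM1 cells from the edgeR fit; points are estimates, bars are 1 standard error, and the dotted line marks a log2 fold change of -1. FGF21 and INHBE lie near -3 or below in all 3 knockdowns, GDF15 spreads from -1.96 to -0.53, and STC2, SESN2 and DDIT4 lie between -0.99 and -0.67.

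Set against the call rule of the study (adjusted p under 0.05 and a log2 fold change of at most -1), FGF21, GDF15 and INHBE lay past it in siNAE1 cells, where 8.61% of the genes tested were called lower and 5.3% higher. The same 3 genes lay past it in siUBE2M cells, where 3.89% were called lower and 3.22% higher. In siURM1 cells FGF21 and INHBE lay past it, where 4.73% were called lower and 2.89% higher, and no member was called higher in any knockdown. These counts describe genes that were selected on the same contrast, and nothing is read from them. GDF15 and DDIT4 lay on either side of the fold threshold in siNAE1 cells, at -1.05 and -0.99. Without siNAE1 replicate 1 or 3 GDF15 moved to -0.97 or -0.96, and DDIT4 moved to -1.01 without control replicate 2 and to -1.04 without siNAE1 replicate 2. DDIT4 also reached the threshold with DESeq2 (-1.001, which calls 4 members), with siNAE1 and control alone in the fit (-1.01, 4 members) and with at least 10 counts in every library (-1.02).

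In the tests between knockdowns, FGF21, GDF15, STC2 and DDIT4 differed between siNAE1 and siUBE2M cells (4 of 6), as did 44.3% of all genes tested. GDF15 and STC2 differed between siNAE1 and siURM1 cells (2 of 6), against 38.6% of all genes, and GDF15 alone between siUBE2M and siURM1 cells (1 of 6), against 35%. With 6 members, and with FGF21 among the 4, nothing particular to them is read from these counts. For FGF21 the siNAE1 to siUBE2M difference was -1.35 (SE 0.56, adjusted p = 0.049, edgeR), between groups with 1 to 11 counts per library in which the gene would not pass the filter. With only these 2 groups in the fit FGF21 was filtered out and not tested, so the call is not relied on. It was not called with DESeq2 (adjusted p = 0.086), with no filter on low counts (0.081) or with a replicate block (0.054). Leaving out 1 library also ended the call, at adjusted p = 0.059, 0.061 and 0.057 without control replicate 1, 2 and 3, 0.057, 0.058 and 0.15 without siUBE2M replicate 1, 2 and 3, 0.15 and 0.17 without siNAE1 replicate 1 and 3, and 0.051 without siURM1 replicate 2. Without siNAE1 replicate 2 the difference was -2.21 (adjusted p = 0.013). The siNAE1 to siURM1 difference of FGF21 was -1.06 (95% interval -2.28 to 0.17, adjusted p = 0.19), an interval that includes 0.

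Levels can be compared between genes only per length, on the FPKM scale. In control cells the order was SESN2 at 104 FPKM ± 2.31 (SD, n = 3), DDIT4 at 88.8 ± 2.28, STC2 at 81.3 ± 1.86, INHBE at 33.1 ± 1.25, GDF15 at 5.34 ± 0.14 and FGF21 at 3.96 ± 0.49. Neighbours in this order did not overlap in the control libraries. In siNAE1 cells the order was kept, at 65.2, 44.3, 43.9, 3.80, 2.54 and 0.166 FPKM, but DDIT4 (42.7 to 47.2 FPKM) and STC2 (42.0 to 45.0 FPKM) overlapped there. They also overlapped in siUBE2M cells, at 50.9 and 50.0 FPKM, and in siURM1 cells, where the means were in the opposite order at 48.3 and 49.2 FPKM. STC2 made up 65.7% of the summed FPKM of the 4 secreted genes in control cells and 87.1%, 89.7% and 85.5% in siNAE1, siUBE2M and siURM1 cells. By RNA, STC2 was thus the largest part of this sum in each group. The sum itself was 124 FPKM in control and 50.4, 55.7 and 57.5 FPKM in siNAE1, siUBE2M and siURM1 cells. STC2 was lower too, but INHBE and FGF21 fell further in each knockdown, and GDF15 did so in siNAE1 and siUBE2M cells. INHBE, the largest of these in control cells, went from 33.1 FPKM to 3.80, 3.91 and 4.25 in siNAE1, siUBE2M and siURM1 cells. As a description of the contrast with control, nothing further is read from this share.

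Replicates varied little for the abundant genes. The highest library exceeded the lowest of its group by at most 1.14-fold for SESN2, 1.10-fold for DDIT4 and 1.07-fold for STC2. The ratio reached 1.29 for INHBE, 1.42 for GDF15 and 4.68 for FGF21, each of the last 2 in the siNAE1 group. Within siNAE1 cells replicate 2 was the highest library for FGF21, GDF15, INHBE, STC2 and DDIT4, but not for SESN2, where replicate 3 was.

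The genes whose log2 CPM followed each member most closely over the 11 libraries were taken from the 15595 genes that averaged 1 CPM or more. Such values are dominated by the distance between control and knockdown libraries. For INHBE they were TRIB3 (Pearson r = 0.99), ATF3 (0.99) and CTH (0.99), a pseudokinase, a transcription factor and a transsulfuration enzyme. For STC2 they were CTH (0.99), DDIT4 (0.99) and SCYL2 (0.99), and for DDIT4 they were GADD45A (0.99), STC2 (0.99) and MGME1 (0.99). FGF21 was closest to WASHC3, GADD45A and RNASEH2B (0.99 each), and SESN2 to PCBP4, SHC2 and XBP1 (0.98 each). GDF15 was closest to DMKN, ISPD and HSPA9 (0.98 each). Among the members themselves r with GDF15 was between 0.66 and 0.77, and it was between 0.88 and 0.99 for all other pairs.

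The receptors that would receive these signals were examined from gene lists. KLB, the co-receptor of FGF21, had between 3 and 20 counts per library, while FGFR1, FGFR2, FGFR3 and FGFR4 were at 4.76 to 6.23 FPKM in control cells. None of these 5 genes passed the call rule, although FGFR3 came close in siNAE1 cells with a log2 fold change of 0.90 (adjusted p = 2.5e-10, edgeR). GFRAL, the receptor of GDF15, had 0 counts in every library, which allows at most 0.184 to 0.256 counts per 1000000 total counts by counting error, and its partner RET was at 0.515 FPKM in the control and came close to the call rule in siURM1 cells (log2 fold change 0.99, adjusted p = 0.0010, edgeR). ACVR1C, the receptor ALK7 through which activin E acts, was at 0.237 FPKM and rose in siNAE1 cells (log2 fold change 1.07, adjusted p = 5.2e-04, edgeR), as 1 of the 9 receptors and binders of activins, none of which was called in siUBE2M or siURM1 cells, where 3.22% and 2.89% of all genes were called higher beside 5.3% in siNAE1 cells, so nothing is read from these counts. PAPPA, the protease that STC2 inhibits, had at most 4 counts and PAPPA2 at most 9, and neither was tested. Of the 3 stanniocalcin partners tested, HMOX1, heme oxygenase, rose in siNAE1 (2.10, adjusted p = 2.3e-16) and siURM1 cells (1.85, adjusted p = 1.2e-13), with a value of 0.48 in siUBE2M cells (adjusted p = 0.0017), and IGFBP4, a substrate of PAPPA, fell in siUBE2M cells (-1.40, adjusted p = 1.4e-07). These HEK293T libraries thus held little RNA of KLB, GFRAL or PAPPA. In the knockdown libraries FGF21 itself was also scarce, at 1 to 11 counts per library.

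The paralogs are given with the same shares of all genes called as background, 8.61%, 3.89% and 4.73% lower and 5.3%, 3.22% and 2.89% higher in siNAE1, siUBE2M and siURM1 cells. Of 9 tested, INHBA and INHBC were called lower in siNAE1 and in siURM1 cells, and INHBB and INHBC in siUBE2M cells. STC1 rose in siNAE1 cells from 0.211 to 0.499 FPKM (log2 fold change 1.25, adjusted p = 0.0061, edgeR), where STC2 was lower. DDIT4L, the paralog of DDIT4, also rose there (1.11, adjusted p = 2.2e-04), and its values in siUBE2M and siURM1 cells were 0.85 (adjusted p = 0.0050) and 0.78 (adjusted p = 0.020). SESN1 had log2 fold changes of 0.42 (adjusted p = 1.6e-04), -0.21 (adjusted p = 0.060) and -0.45 (adjusted p = 6.2e-04), and SESN3 of -0.14 (adjusted p = 0.18), -0.27 (adjusted p = 0.0093) and 0.55 (adjusted p = 1.0e-05). SESN2 was the sestrin with the lowest value against control in each of the 3 knockdowns. It was chosen with this contrast known, so that order is a description only. By FPKM it was the most abundant sestrin in all 4 groups.

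Genes downstream of the brakes were listed by arm, and their calls are few enough that little can be read from them, since 8.61%, 3.89% and 4.73% of all genes tested were called lower and 5.3%, 3.22% and 2.89% higher in siNAE1, siUBE2M and siURM1 cells. None of the 16 genes of the SESN2 arm, which holds the GATOR subunits, the RAG GTPases and AMPK, passed the call rule in any knockdown, with medians of 0.10, 0.06 and 0.02 beside -0.00, 0.01 and -0.02 over all genes tested. The lowest and highest of this arm on average were MIOS (-0.42, -0.32 and -0.25) and PRKAA2 on the low side and DEPDC5 and RRAGD (-0.13, 0.81 and 0.62) on the high side. RRAGD had an adjusted p of 1.4e-09 in siUBE2M cells (edgeR) but did not reach the fold threshold. Of the 14 genes of the DDIT4 arm and mTORC1, EIF4EBP1, a translation repressor that mTORC1 inactivates, fell in siNAE1 (log2 fold change -1.50, adjusted p = 2.6e-18, edgeR) and siUBE2M cells (-1.04, adjusted p = 2.8e-14) and was at -0.60 in siURM1 cells (adjusted p = 5.5e-08). TXNIP, which binds DDIT4 protein, had values of -0.84, -0.86 and -0.41. The other 13 genes of the list were not called in any knockdown, and the medians were -0.04, -0.08 and -0.07.

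Regulators of stress signalling were listed with earlier results of these data known, so their counts are a description only. Whether the listed genes act on the 6 members was not tested. Among 21 listed genes, 7 were called lower in siNAE1, 6 in siUBE2M and 7 in siURM1 cells, beside 8.61%, 3.89% and 4.73% of all genes. None was called higher, and none of the listed eIF2 kinase genes was called in either direction. ATF3, CEBPB, CEBPG, TRIB3, NUPR1 and XBP1 were in each of these counts, with DDIT3 added in siNAE1 and ATF6 in siURM1 cells. TRIB3 fell by 2.67, and its values in siUBE2M and siURM1 cells were -2.57 and -2.14 (adjusted p = 2.4e-23, 8.6e-23 and 3.6e-19, edgeR). ATF4 itself was not lower: its RNA was at 336 FPKM in control cells and 531, 527 and 375 in siNAE1, siUBE2M and siURM1 cells, with log2 fold changes of 0.67 (adjusted p = 2.4e-11), 0.65 (adjusted p = 8.5e-11) and 0.16 (adjusted p = 0.051). ATF4 output is set largely by translation, which RNA counts do not measure. HIF1A, a subunit of the hypoxia-inducible factors, had log2 fold changes of 0.20, 0.01 and -0.13.

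The 6 genes can be set beside lists of other targets of the same factors. These lists were chosen with earlier results of these data known, so their counts and medians are a description only. Of 30 other ATF4 targets, 15 were called lower in siNAE1, 5 in siUBE2M and 5 in siURM1 cells and none higher. Of all genes tested, 8.61%, 3.89% and 4.73% were called lower and 5.3%, 3.22% and 2.89% higher in these knockdowns. The medians of the ATF4 targets were -0.94, -0.38 and -0.56, beside -0.00, 0.01 and -0.02 over all genes. CTH (-2.23, -1.95 and -2.02) and ADM2 (-3.29, -0.92 and -1.20) were the lowest on average, and CBS and KLHL24 the highest, with no call. Of 19 other HIF targets tested, 6 were called higher and 1 lower in siNAE1 cells, 1 in each direction in siUBE2M cells and 1 higher in siURM1 cells. These counts stand beside the same shares of all genes, and the medians of the HIF targets were 0.63, 0.37 and 0.25. On average over the knockdowns NDRG1 was highest (2.78, 0.87 and 1.49), although ADM (1.17) and other genes of the list exceeded it in siUBE2M cells. VEGFA, also on the ATF4 list, was lowest by the same average (-1.55, -1.15 and -0.74). The median of 25 other secreted factors was 0.28, -0.23 and 0.26. On average over the knockdowns CDNF (-2.11, -0.91 and -2.22) and MDK were lowest and BMP4 and CXCL8 highest. Of these 25, 1 was called higher and 1 lower in siNAE1, 1 lower in siUBE2M, and 4 higher and 1 lower in siURM1 cells. With the same shares of all genes called, nothing is read from these small counts.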

How the data were processed

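Poly(A) RNA of 11 HEK293T libraries was compared in 4 groups. The authors used fastp for trimming, HISAT2 2.0.5 for alignment (GRCh38) and featureCounts 1.5.0-p3 for fragments per gene, and deposited raw counts. The deposited FPKM are those counts per kilobase of the authors' listed gene length and per 1000000 of a constant for each library. This constant was 0.961 to 1.07 times the library's total count. The study's methods describe FPKM as scaled by mapped reads, but how these constants were reached is not stated. Counts were fitted here with edgeR 4.0.16 (R 4.3.3): filterByExpr, TMM, 1 quasi-likelihood fit of 4 groups, and Benjamini-Hochberg adjustment over 18368 genes. Standard errors are the log2 fold change over the square root of F. Both this and DESeq2 1.42.0, an alternative, were tested on simulated data. The study itself used DESeq2 1.20.0. Calls against control needed an adjusted p under 0.05 and a log2 fold change of at least 1 in size; calls between knockdowns needed the adjusted p alone. The members and the 13 gene lists were chosen with earlier results of these data known. Of the 166 listed genes, 158 matched by symbol and 8 by Ensembl ID, and 156 were tested; 1 further list and 1 regulator are not reported. Genes could be named from the lists of receptors, binders, partners, paralogs and regulators, as the 2 lowest and 2 highest of each other list, as the 3 most like a member, or as its neighbours. Alternatives were other normalizations, filters, fits and thresholds, and leaving out each library.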

Additional observations from a re-analysis of the deposited data

How the results depend on the processing

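Nothing is read from members counted against control, the contrast in view when they were chosen, and FGF21 passed the filter through the control. With no fold change threshold, 6 members were past the adjusted p in siNAE1, siUBE2M and siURM1 cells alike, with 4973, 4147 and 3822 genes lower in all. With at least 10 counts in every library, which leaves FGF21 untested, 3 members (GDF15, INHBE and DDIT4) were called lower in siNAE1, 2 in siUBE2M and 1 in siURM1 cells, and 925, 392 and 499 genes were called lower in the 3 knockdowns. A test against a log2 fold change of 1 (glmTreat) called 502, 107 and 118 genes lower. Among them were 2 members in siNAE1 (FGF21 and INHBE, without GDF15), 3 in siUBE2M and 2 in siURM1 cells. Leaving out 1 library gave 2 to 4 members called lower in siNAE1, 3 in siUBE2M and 2 in siURM1 cells, among 1449 to 1649, 635 to 739 and 716 to 886 genes.

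Between knockdowns, adding a log2 fold change of 1 or more in size left 1 member for siNAE1 against siUBE2M (FGF21, at 1 to 11 counts and filtered out with these groups alone, so not relied on), 0 for siNAE1 against siURM1 and 1 (GDF15) for siUBE2M against siURM1, with 1440, 1241 and 993 genes. For siNAE1 against siURM1, DESeq2 called 1 member of 6263 genes, no filter on low counts 0 of 6688, a fit of the 2 groups 1 of 6771, and leaving out 1 library gave 0 to 2 of 5274 to 7280. For siNAE1 against siUBE2M, leaving out 1 library gave 1 to 4 of 7099 to 8164. The cause of these losses was not tested, and those with a library left out come with fewer samples. Without siUBE2M replicate 3 the siNAE1 to siUBE2M difference of INHBE turned to 0.089 from -0.035 (range -0.11 to 0.089 with 1 library left out), and without siUBE2M replicate 2 that of SESN2 turned to -0.028 from 0.028 (range -0.028 to 0.075), both with adjusted p far over the threshold (0.59 and 0.78). All 303 alternative values of the members against control kept their sign.

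Same-numbered libraries did not deviate together (correlation of deviations from the group means between -0.07 and 0.08 over 15 pairs), so the numbers were not taken as pairs. With the number as a replicate block, 3, 3 and 2 members were called lower against control, among 1576, 700 and 856 genes, and 3, 1 and 1, among 8053, 6793 and 6293 genes, differed between siNAE1 and siUBE2M, siNAE1 and siURM1, and siUBE2M and siURM1. The median log2 fold change of FPKM over members and knockdowns was -0.87 with a pseudocount of 1, -0.94 with 0.1 and -0.97 with counts per kilobase per 1000000 total counts. This median hides FGF21, which went from -2.09, -1.77 and -1.85 in siNAE1, siUBE2M and siURM1 cells with a pseudocount of 1 to -4.04, -2.89 and -3.10 with 0.1; 20 of 38 alternative values on this scale, the medians included, moved by more than the spread between replicates. Depth limits FGF21 most, since 1 count is a large share of its level in each knockdown library.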
